A study of Mus musculus with 26 samples.

Results

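Sperm methylomes of 2 sets of 5 young male mice, the sets that the study's data offer as the maternal-line and the paternal-line grandoffspring of spermatogonial stem cell transplantation (SSCT), were set against each other directly, without a control group between them. Of the 26 libraries of the series, 10 enter, and of 3600165 autosomal CpG positions covered in any of the 20 offspring libraries, 596680 (16.6%) had at least 10 reads in all 10 of them. Both strands of a CpG are listed as separate positions. After positions of extreme coverage were removed, 593323 positions in 126485 windows of 1000 bp remained for testing. In the study, stem cells of DBA/2J pups were propagated in vitro and transplanted into sterile W/W-v males, which were mated with DBA/2J females to give SSCT F1. SSCT F2/M came from SSCT F1 females and control males, and SSCT F2/P from SSCT F1 males and control females, so that every mouse compared here was bred from DBA/2J germ cells, with no brothers in a group. The sperm was collected at 3 months of age.

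The names of the sets are not settled by the sources. The sample titles call the first set SSCT F1 and the second Control F1, and the published heatmap names them SSCT F2/P and SSCT F2/M. The coverage means that the study lists for single CpGs were recomputed from the deposited coverage: 50 of 56 matched when the first set was read as SSCT F2/M and the second as SSCT F2/P, 34 matched with these lines exchanged as in the heatmap, and 0 matched under the sample titles. Of the 21 means listed for the F2 lines, the numbers were 19, 3 and 0. The sets are therefore called set A (the maternal line, SSCT F2/M, by coverage) and set B (the paternal line, SSCT F2/P, by coverage), the mice A1 to A5 and B1 to B5, and every difference is A minus B. The values do not depend on the naming, but which line they belong to does, and under the sample titles the same comparison would be of SSCT F1 with Control F1.

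DNA methylation in mammals sits mainly on the cytosine of CpG dinucleotides, which pair with each other on the opposite strands and are as a rule methylated or unmethylated together. In the male germ line most methylation is erased in primordial germ cells and laid down again before birth, so that mature sperm carries high methylation outside CpG islands and almost none at CpG-rich promoters. Imprinted genes are exceptions that keep a mark from 1 parent, and sperm lacks the maternal marks. In reduced-representation bisulfite sequencing (RRBS), DNA is cut at CCGG sites, which enriches CpG-rich fragments, and bisulfite turns unmethylated cytosines into bases read as T, so that the methylation level is the percentage of reads that still show C. A maternal and a paternal line differ in the parent through which a change in the transplanted germ line would have had to pass, the oocyte or the sperm of the SSCT F1.

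The libraries held 45609751 to 66812322 reads at CpG positions, and the positions kept had a median of 31 to 45 reads per library. The number of reads did not differ between the sets beyond the spread of mice (exact permutation test, two-sided, n = 5 and 5, p = 0.294). Unmethylated control DNA added to the samples read 0.678% to 1.22% methylated and methylated control DNA 98.3% to 98.9%. As a check of the tissue, regions that carry the maternal mark of imprinted genes, which sperm lacks, were read: of 13 measured from a list of 14, 8 stayed below 10% in all 10 libraries, among them Peg3, a zinc finger gene (1.33% ± 0.88 in set A, 1.20% ± 1.35 in set B, SD, n = 5 each), and Kcnq1ot1, a regulatory RNA, with 0% throughout. Exceptions were Mest with up to 13.5%, Nap1l5 with up to 10.8%, Airn with up to 13% and Slc38a4 with 42% in B2 over 3 positions, and Peg10, for which the whole gene was taken, lay at 37.9% to 46.2%. H19 and Meg3, which should be methylated in sperm, were read over the gene with flanks of 5000 and 20000 bp. They averaged 54.2% and 73.2% in set A and 58.3% and 72.9% in set B. These levels fall short of full methylation, so the check rests on the maternal marks.

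Promoters are shown for 4 genes that carried called positions, to let the density of the measured CpGs be seen: Cubn, the vitamin B12 and albumin receptor cubilin, had the only called window with at least 3 positions at a gene start; at Olfr368, an olfactory receptor, every mouse of set B was at 0%; Krt23, a keratin, had 2 called positions in the lower direction; and Wnt2b, a secreted signalling protein, stands for a CpG-rich promoter. The sequences are from RefSeq on GRCm38.p6, from 250 bases before to 50 bases after the gene start, read along the gene, with the CpGs that were tested in capitals. They lie at chr2:13491827-13492126 on the minus strand, chr2:37331499-37331798 on the plus strand, chr11:99493071-99493370 on the minus strand and chr3:104961660-104961959 on the minus strand, respectively.
Cubn: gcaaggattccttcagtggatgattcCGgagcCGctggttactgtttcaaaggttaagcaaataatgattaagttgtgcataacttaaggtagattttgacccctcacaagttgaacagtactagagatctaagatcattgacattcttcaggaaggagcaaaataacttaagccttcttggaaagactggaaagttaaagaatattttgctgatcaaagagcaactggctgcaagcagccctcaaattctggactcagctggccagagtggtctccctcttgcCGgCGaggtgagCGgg
Olfr368: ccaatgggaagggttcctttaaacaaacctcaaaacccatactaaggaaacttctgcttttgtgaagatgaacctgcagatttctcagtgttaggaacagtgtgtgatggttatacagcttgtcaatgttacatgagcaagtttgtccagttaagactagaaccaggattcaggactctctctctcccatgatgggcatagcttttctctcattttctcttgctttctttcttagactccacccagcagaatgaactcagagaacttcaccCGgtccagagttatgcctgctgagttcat
Krt23: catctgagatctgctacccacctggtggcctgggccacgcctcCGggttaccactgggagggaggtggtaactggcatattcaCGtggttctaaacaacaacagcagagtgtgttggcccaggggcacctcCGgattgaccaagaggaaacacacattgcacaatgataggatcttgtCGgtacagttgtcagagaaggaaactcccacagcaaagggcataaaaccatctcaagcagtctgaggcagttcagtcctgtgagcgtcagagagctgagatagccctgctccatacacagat
Wnt2b: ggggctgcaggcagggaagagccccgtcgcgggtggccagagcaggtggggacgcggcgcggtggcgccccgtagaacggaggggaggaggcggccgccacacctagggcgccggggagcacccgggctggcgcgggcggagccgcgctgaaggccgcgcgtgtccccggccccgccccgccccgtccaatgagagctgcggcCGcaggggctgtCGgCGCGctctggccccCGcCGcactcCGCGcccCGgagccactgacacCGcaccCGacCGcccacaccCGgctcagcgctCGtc

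Overall levels were the same within a narrow margin. Mean methylation over all CpG positions was 34.2% ± 0.0764 in set A and 34.2% ± 0.0989 in set B (SD, n = 5 each), a difference of 0.010 percentage points with an interval of -0.129 to 0.150 at 95% confidence (exact permutation test, two-sided, p = 0.849). Mice of the sets were mixed: A1 to A5 had 34.15%, 34.22%, 34.07%, 34.27% and 34.18%, and B1 to B5 had 34.25%, 34.07%, 34.12%, 34.30% and 34.11%. In the 37135 windows of low level (below 20%) set A was 0.081 points higher, in the 15891 of middle level (20 to 80%) 0.17 points higher, and in the 73459 of high level (above 80%) 0.074 points lower, with exact permutation p = 0.278, 0.714 and 0.167 at n = 5 and 5. CpGs in promoters, from 250 bp before to 50 bp after a gene start, averaged 3.01% ± 0.0106 and 3.00% ± 0.0202, those in gene spans outside promoters 33.9% in both sets, and those outside genes 51.2% in both. None of the 14 means of CpGs or windows compared passed the test, and the Benjamini-Hochberg adjusted p was 0.984 for each.

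**Figure D1:**
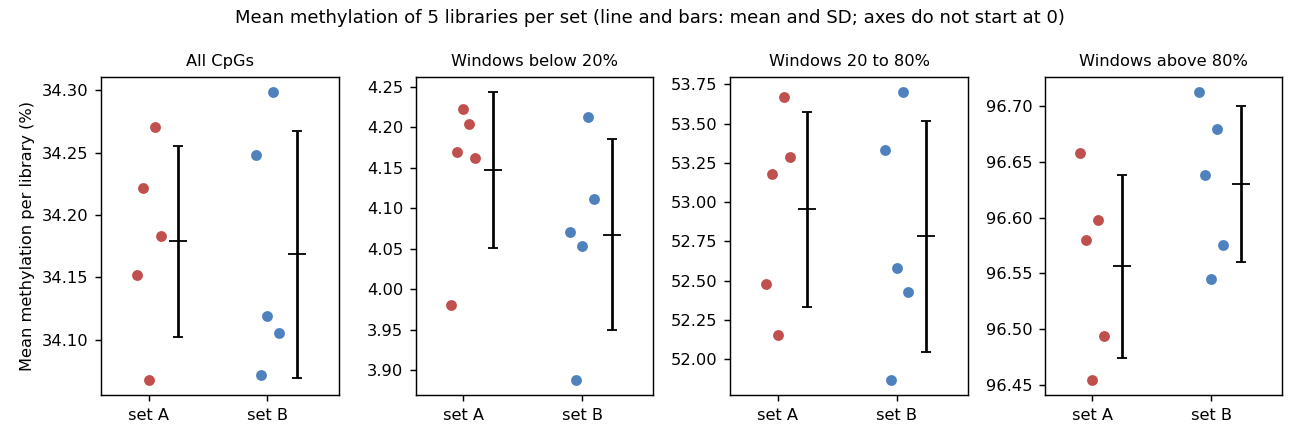
Mean methylation per library in percent (y axis) for set A (red) and set B (blue), over all CpG positions and over windows of low, middle and high level, with mean and SD (bars, n = 5). The mice of the sets overlap in every panel, and the largest distance between set means, in the middle class, is 0.17 percentage points.

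Distances between mice differed little within and between sets. The root mean square difference between libraries over windows averaged 11.717 points for pairs of different sets and 11.709 points for pairs of the same set, a difference of 0.0085 points (exact permutation test, one-sided, n = 5 and 5, p = 0.230). The nearest library was B5, the most deeply sequenced of the 10, for each of the other 9 mice. Over 45 pairs of mice, the correlation of window levels was between 0.956 and 0.968, across windows of shared sequence. Mouse A3 lay farthest from the other 9 mice (12.3 points on average) and B5 nearest (11.2 points). Mice of set A deviated more from each other: the mean absolute deviation of a mouse from the median of the others of its set was 4.73, 4.70, 4.98, 4.62 and 4.76 points in A1 to A5 and 4.41, 4.69, 4.59, 4.61 and 4.33 points in B1 to B5, so that a mouse of set A was above a mouse of set B in 24 of 25 pairings (difference 0.232 points, interval 0.0269 to 0.429, exact permutation test, two-sided, p = 0.0159). These deviations were computed once within the sets and not anew for each split. The values of a set therefore depend on each other, and the p and the interval are descriptive only. Mice of set A had 39.2 reads per position on average and those of set B 41.8, and the part of depth in this spread was not tested. With at least 20 reads per position the difference was 0.204 points and the exact permutation p = 0.0635. Without B1, B2, B3, B4 or B5 it was 0.0029, 0.0733, 0.0490, 0.0605 and -0.0164 points. Without A1, A2, A3, A4 or A5 it was 0.456, 0.440, 0.370, 0.467 and 0.431 points. A mouse of 4 is then measured against the median of 3, so the measure is built differently for the sets. Leaving out a mouse therefore cannot decide whether the difference holds.

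**Figure D2:**
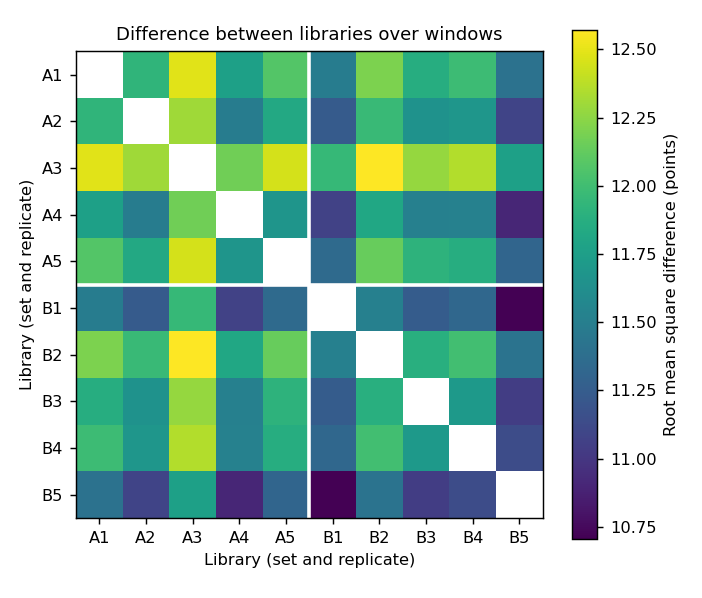
Root mean square difference of window methylation between each pair of libraries, in percentage points (colour), with set A (A1 to A5) and set B (B1 to B5) divided by white lines. Pairs from different sets average 11.717 points and pairs within a set 11.709, while single mice, such as A3 with 12.3 points on average, stand out against both sets.

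Differentially methylated cytosines (DMCs) were called by a likelihood-ratio test in a logistic model of methylated and unmethylated reads. A call needed q below 0.01, and levels weighted by reads had to differ by more than 25 percentage points. There were 2718 DMCs, 0.458% of the positions tested, of which 1414 were higher in set A (0.238% of positions) and 1304 lower. Differentially methylated regions (DMRs), called by the same rule on windows, numbered 513, 0.406% of the windows, with 270 higher in set A (0.213%) and 243 lower. That test counts each read as an independent observation. When the spread between mice was put into the test, by scaling with the Pearson chi-square in an F test, 0 CpGs and 0 windows were called. Before adjustment, 1411 CpGs and 279 windows that differed by more than 25 points had F test p under 0.05. The lowest adjusted F test p was 0.625 for CpGs and 0.510 for windows, and limma on log ratios likewise called 0 CpGs and 0 windows, with 1725 and 316 of that size under 0.05 before adjustment. The 5 libraries titled SSCT F2/M and the 5 titled SSCT F2/P, which under the coverage match are Control F1 and SSCT F1, gave 2813 DMCs (0.397%) and 485 DMRs (0.356%) against each other by the first rule.

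Called positions lay mainly at middle levels, where mice also differ among themselves. The rule itself favours such levels, since a mean near either end of the scale leaves little room for a difference above 25 points. The shares by level below therefore follow in large part from the rule. Among CpGs, 6.70% had a mean level between 20% and 80%, but 85.4% of the DMCs did, and 5.84% of such CpGs were DMCs. The median SD between mice of a set was 21.9 points at DMCs, 19.8 points at all CpGs of that middle range and 3.95 points at all CpGs. The SD at DMCs was thus close to that of all CpGs in the range that the rule favours. For windows the same held: 2.83% of windows of middle level were DMRs, against 0.0646% of low and 0.0531% of high windows. The same rule favours middle levels here too. Windows with 1 covered position were called in 0.964% of cases, those with 2 in 0.359% and those with 3 or more in 0.0870%, and 68.8% of the DMRs held 1 position, against 28.9% of all windows. The DMRs had a median of 38.3 reads per library, all windows 101. By location, 0.119% of windows with a promoter, 0.295% of other windows in gene spans and 0.695% of windows outside genes were DMRs. Among the autosomes the share ranged from 0.260% on chromosome 7 to 0.629% on chromosome 14.

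**Figure D3:**
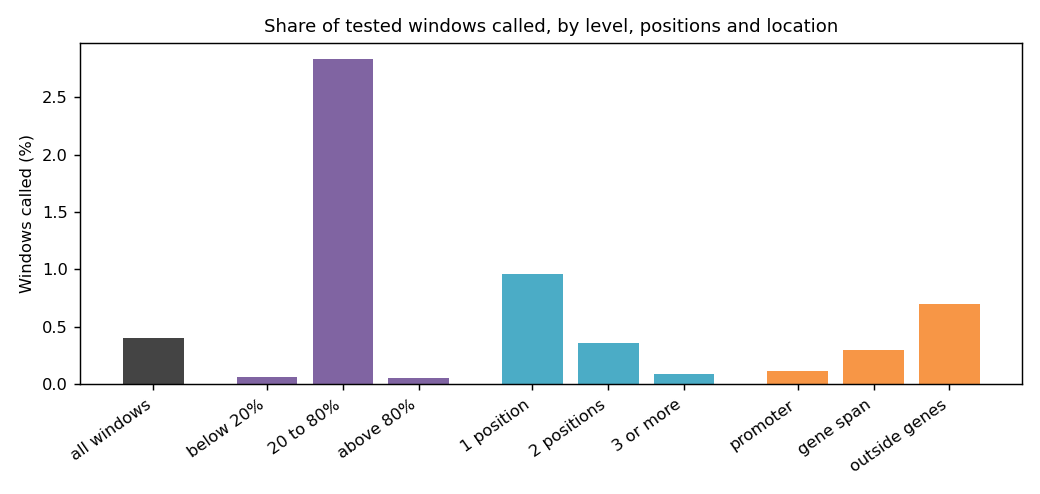
Percentage of tested windows called as DMRs (y axis, from 0), for all windows and by mean level, by number of covered positions and by location. The share is 0.406% over all windows, 2.83% in windows between 20% and 80% methylation, and falls from 0.964% with 1 position to 0.0870% with 3 or more. A call needs a difference above 25 points, which favours windows of middle level, so the shares by level follow in large part from the rule.

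The other strand of a CpG offered a second reading in the same mice from other reads. Across 69379 CpGs tested on both strands, the mean levels of the strands had a median difference of 1.28 points and a correlation of 0.947, a description across CpGs. Among the DMCs, 310 had their other strand tested. There the difference between the sets had the same sign in 151 (48.7%), and its median in the direction of the DMC was 0, against a median of 28.7 points at the DMCs themselves. The sets were without overlap at 0 of the 310, against 0.139% of all CpGs, a share too small to be seen among 310. In 233 of the 310 (75.2%) the other strand too had a level between 20% and 80%. The nearest tested position on the same strand within 40 bp, which a read of 50 bases can span together with the DMC, had the same sign for 1395 of 1795 DMCs (77.7%), with a median of 12.3 points. The DMCs were selected for their difference, and partners on the same strand share reads with the DMC. Of the 310 partners on the other strand, 12 were DMCs themselves (3.87%, against 0.458% of all positions and 5.84% of those between 20% and 80%).

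**Figure D4:**
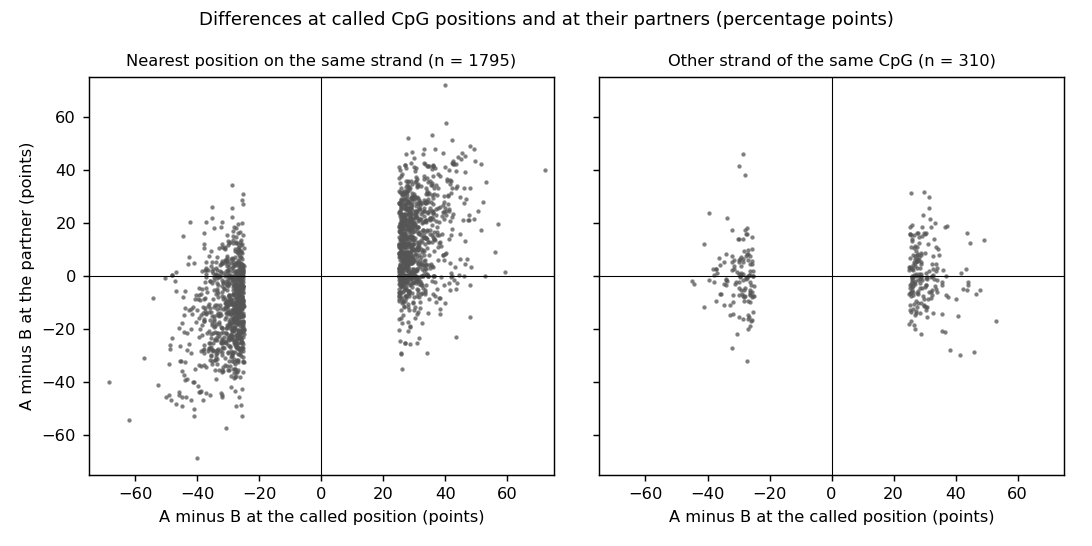
Difference A minus B at called CpG positions (x axis, percentage points) against that at a partner position (y axis, percentage points), for the nearest position on the same strand within 40 bp (left, n = 1795) and for the other strand of the same CpG (right, n = 310). Partners on the same strand share the sign in 77.7% of cases and partners on the other strand in 48.7%.

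Of the DMCs, 6 CpGs were called on both strands. At 3 of them the strands moved in opposite directions, at chr1:190284264-190284265 between Prox1os and Gm39737 (38.1 and -27.8 points on the plus and minus strands), at chr4:142508775-142508776 (46.1 and -28.6 points) and at chr11:70728251-70728252 in Kif1c, a kinesin motor (-29.97 and 41.4 points). At the other 3 the strands moved together, higher in set A at chr2:73364197-73364198 in Gpr155 (31.6 and 29.7 points) and at chr17:29878221-29878222 in Mdga1, a cell adhesion gene of the nervous system (31.3 and 25.6 points), and lower at chr12:106309305-106309306 between Gm24986 and Gm32830 (-27.2 and -32.0 points). In none of these 12 positions were the sets free of overlap. At Mdga1 the plus strand had 76%, 17.9%, 70.6%, 55% and 44.2% in A1 to A5 and 12%, 23.5%, 0%, 45.5% and 5.1% in B1 to B5, and the minus strand 16.2%, 25.8%, 100%, 72% and 34% against 4.3%, 66.7%, 0%, 33.3% and 0%. These sites were chosen after their values had been seen.

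Complete separation of the sets was rare. The values of all 5 mice of a set lay above or below those of the other set at 825 CpGs (0.139%) and 549 windows (0.434%), of which 245 were DMCs and 50 were DMRs. Of the 50 windows, 27 were higher and 23 lower in set A, and 26 lay in gene spans. Of these 50, 31 had 1 covered position, 13 had 2 and 6 had 3 or more. With the tested positions kept the same, 30 of the 50 stayed DMRs whichever library was left out, against 153 of all 513 DMRs (29.8%). The window at Aard is among the 30, but it lost its difference without A2 when positions were chosen anew. A separated window has an exact permutation p of 0.00794 at n = 5 and 5, the smallest that this number of mice allows. In the 10 other offspring libraries of the series, 37 of the 50 windows were covered at all their positions in every library, and at 26 of these 37 the 10 other mice ranged from below the lower to above the higher of the set means.

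Among separated DMRs with at least 3 positions, 5 were higher in set A. That with the largest difference lay at the start of Cubn, at chr2:13491001-13492000, where 4 positions between 13491819 and 13491842 gave 100%, 72.2%, 95.3%, 71.1% and 57.4% in A1 to A5 and 38.5%, 18.8%, 45.5%, 44.6% and 50% in B1 to B5. Every mouse of set A was above every mouse of set B, with A5 and B5 nearest to each other, and the read-weighted difference was 33.7 points (likelihood-ratio q = 8.81e-27, F test q = 0.537). The 10 other offspring mice spanned 31.8% to 100% with a median of 62.9%. Within the promoter shown above, DMCs lay 34, 37 and 46 bases after the gene start, the last with 100%, 72.2%, 100%, 71.1% and 59.1% against 38.5%, 8.33%, 45.5%, 39.3% and 33.3%. In set A the values at 37 bases were identical to these. Over all 5 tested positions of the 300-base promoter the sets overlapped, with 71.7%, 43.3%, 100%, 42.7% and 50.4% against 43%, 5.00%, 40.6%, 43.4% and 48.9%.

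The pseudogene Hmgb1-ps3 on chromosome 11, a copy of a chromatin protein gene, held the second window, at chr11:63846001-63847000 with 4 positions. Its levels were 51.1%, 88.2%, 80%, 47.6% and 59.7% in set A and 23%, 37.2%, 21.8%, 37.5% and 40.5% in set B, a read-weighted difference of 33.7 points that was 23.7 points, and no longer called, without A2. The 10 other offspring mice lay between 11.9% and 49.6%, with a median of 30.2%. Reads of such a copy may be shared with near-identical sequence elsewhere, so this level is uncertain.

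The window chr13:48431001-48432000, 7665 bp from Gm40940, held 5 positions. They gave 86.5%, 77.4%, 80.5%, 87% and 76.8% in set A and 32.4%, 50%, 45%, 56.5% and 66.8% in set B (read-weighted difference 30.9 points, 124 to 423 reads per library, F test q = 0.510). All 5 positions were DMCs, 4 on the plus and 1 on the minus strand. It was called with any library left out, and the 9 other mice with full coverage there ranged from 38.7% to 99.5%.

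The window chr14:108299001-108300000, 205412 bp from Gm41242 as the nearest gene, had 72.8%, 79.2%, 73.1%, 72.3% and 80% in set A and 48.3%, 27.1%, 31.9%, 70% and 64.9% in set B, with the other mice anywhere from 0% to 100%. The window chr14:20260001-20261000 in the gene model Gm2048, 375 bp from the potassium channel gene Kcnk16, had 87.1%, 62.6%, 62.7%, 79.6% and 57% against 38%, 55%, 48.6%, 40.4% and 15.4%. In the lower direction there was 1 such window, chr1:108784001-108785000, 11998 bp from Gm6679, with 36.4%, 31.6%, 12.6%, 53.8% and 35.7% in set A and 69.8%, 55.4%, 56.3%, 66.7% and 69.1% in set B over 3 positions. Each of these 3 windows lost its call without 1 library, with read-weighted differences of 24.2 points without B2, 22.9 points without B5 and -22.2 points without A3, respectively.

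The largest separated differences of all were at windows of 1 or 2 positions. At Il1r1, the receptor for interleukin 1, the position chr1:40314868 had 76.5%, 100%, 100%, 100% and 82.6% in set A and 61.1%, 57.5%, 35.7%, 70% and 0% in set B, with 10 to 64 reads and a read-weighted difference of 48.0 points. At chr7:14866244, 592 bp from the pseudogene Obox4-ps38, the levels were 66.7%, 92.1%, 72.2%, 60% and 87.1% against 47.4%, 0%, 46.9%, 41.7% and 33.3% (41.2 points). At chr1:48100925, between Gm19206 and Gm5974, they were 32%, 29.4%, 28.9%, 41.7% and 81.7% against 22.9%, 8.33%, 0%, 27.3% and 0% (39.0 points), and without A5 the difference was 20.03 points and no longer called.

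The largest difference in the lower direction was in the window chr18:81009001-81010000, 11492 bp from Gm7503, with 37.5%, 15.3%, 50%, 23.1% and 62.5% against 100%, 100%, 82.2%, 94.2% and 88.4% over 2 positions (-55.0 points, 32 to 118 reads). The 10 other mice lay between 31% and 83.8% there, from within the range of set A to that of set B. At Aard, a gene of adrenal and gonadal tissue, chr15:52042887 had 63.6%, 42.3%, 66.7%, 0% and 46.7% against 100%, 100%, 85.7%, 100% and 100% (-52.4 points, 11 to 33 reads, but -29.3 points with strands merged and 0.270 points for the window without A2, where further positions entered it), and the 5 other mice with enough reads were at 100%. At chr9:19788459, 3937 bp from the olfactory receptor gene Olfr58, set A had 22.2%, 0%, 29.2%, 31.2% and 14% and set B 60.6%, 59.5%, 75%, 78.1% and 83.3% (-47.1 points), the largest gap between the nearest mice of these 3.

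**Figure D5:**
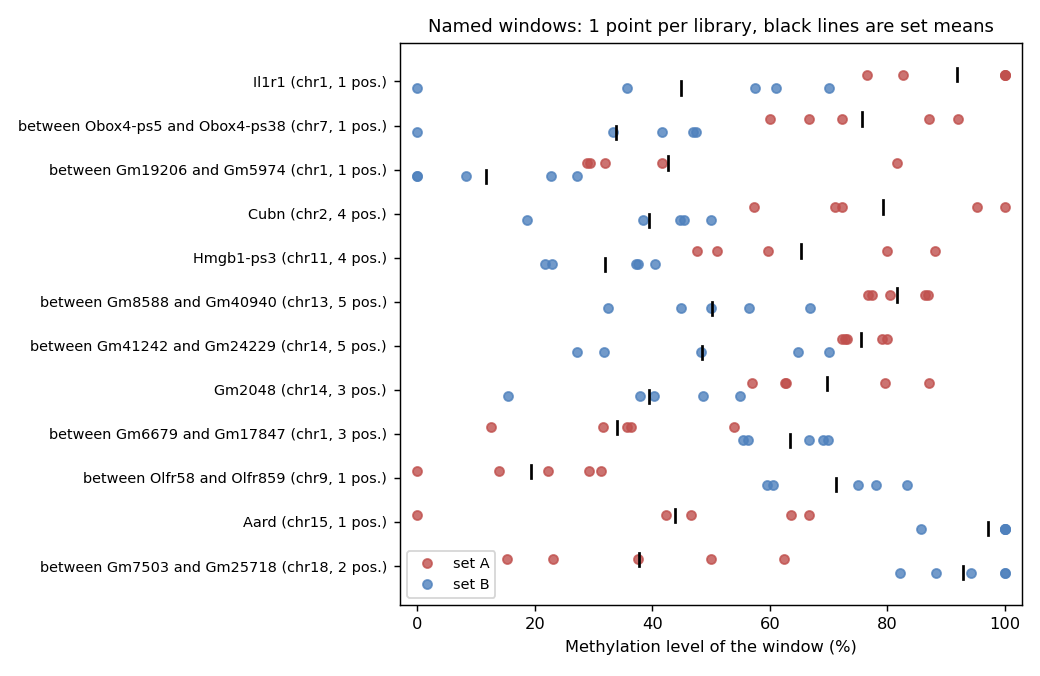
Methylation level in percent (x axis) of 12 separated DMRs (y axis, by gene or flanking genes, with chromosome and number of covered positions), 1 point per library of set A (red) and set B (blue), with set means as black lines. No red point lies among the blue points of the same window, yet the spread within a set reaches 70 points, as at Il1r1 in set B.

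Separated DMRs with a promoter numbered 4, and they were looked at after their values had been seen. Beside Cubn, the window at the start of Ppp1r3a, a subunit that directs a phosphatase to glycogen, had 23.1%, 25%, 4.0%, 36.4% and 35.6% in set A and 0% in all 5 mice of set B at 1 position, where 248 reads without methylation allow a level of up to 1.21%, counting error only. The 10 other mice had 0% to 12.5%. At Gm52542, a gene model inside Lama5, the window had 71.4%, 41.7%, 54.9%, 54.2% and 50% against 26%, 28.9%, 0%, 17.9% and 36.6%. At 1700020D05Rik beside Snx32, a sorting nexin, it had 41.4%, 47.8%, 27.9%, 48.3% and 39.2% against 0%, 0%, 2.5%, 26.6% and 21.2%. All 4 were higher in set A, as were 12 of all 16 DMRs with a promoter (0.119% of 13446 such windows). Of the 40 DMCs inside promoters, 20 were higher and 20 lower in set A. The sets were separated at 91 windows with a promoter (0.677%, against 0.434% of all windows).

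Further separated DMRs lay in the spans of well-known genes, again named after their values were seen. Higher in set A were Cd80, a costimulatory ligand of antigen-presenting cells (53.9% ± 8.07 against 18.5% ± 9.95), Ephb2, an ephrin receptor (80.2% ± 12.9 against 40.6% ± 14.4), Syt1, the calcium sensor of synaptic vesicles (64.5% ± 13.1 against 30.3% ± 11.1), and Fgfr4, a growth factor receptor (72.6% ± 7.38 against 43.3% ± 25.03), each SD with n = 5. Lower in set A were Lrfn1, a synaptic adhesion gene (3.15% ± 5.41 against 37.7% ± 20.3), Abcc2, an export pump for conjugated bile pigments (62.7% ± 17.6 against 92.9% ± 5.06), Ctnna3, an alpha-catenin (12.9% ± 12.5 against 40.4% ± 9.03), and Spef2, a gene of the sperm flagellum (8.01% ± 8.13 against 34.4% ± 8.83). At 6 of these 8 loci the window held 1 position, and the other offspring mice covered wide ranges, from 0% to 100% at Ephb2 and at Abcc2. With the tested positions kept the same, the windows at Fgfr4, Abcc2, Ctnna3 and Spef2 lost their call when certain single libraries were left out, and the other 4 did not.

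Promoters held few changes. Of 9378 promoters with a tested position, 8715 (92.9%) had a mean level below 10% and 368 (3.92%) above 80%. The median absolute difference between the sets was 0.829 points, 142 promoters (1.51%) differed by over 10 points and 10 by over 25 points. DMCs occurred in 39 promoters (0.416%), with 2 or more in 3 of them, Cubn, Krt23 and Tenm3, and 40 of 69511 promoter positions were DMCs (0.0575%). At Olfr368, the position 22 bases after the gene start had 43.6%, 19.5%, 57.3%, 17.1% and 30.8% in set A and 0% in each mouse of set B, where 174 reads allow up to 1.72% (38.4 points). At Krt23, the position 167 bases before the start had 2.1%, 30.6%, 17%, 30.2% and 15.8% against 62.2%, 57.8%, 65.6%, 90.5% and 16.7%, with B5 inside the range of set A. At Wnt2b, 1 of the 14 CpGs tested, at the start itself, had 0% in all of set A (101 reads, which allow up to 2.97%) and 45.7%, 29.2%, 50%, 46.2% and 0% in set B, and the whole promoter averaged 0.349% ± 0.594 and 4.53% ± 2.19 (SD, n = 5 each).

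Clusters of called positions were also described. DMCs fell into 2325 windows, of which 2024 had 1, and 71 had 3 or more. In 63 of the 71 all DMCs moved in 1 direction, 22 were DMRs and 6 had separated sets. Among all windows of 3 or more positions 0.0870% were DMRs and 0.622% had separated sets. The 71 were picked for their called positions, which can share reads on a strand, so these counts partly follow from that choice. Where DMCs lay on both strands of a window (49 windows), they moved in 1 direction in 28. The window with most, 7 DMCs at chr1:191157001-191158000, 4584 bp from Fam71a, was lower in set A, with 47.1%, 7.0%, 45.3%, 43% and 30% against 25.9%, 73.2%, 80.1%, 70.7% and 63.4%, and B1 lay below most of set A. In Adamts20, a secreted protease, 5 DMCs on the plus strand of chr15:94338001-94339000 were higher in set A, with 27.3%, 65%, 54.2%, 60.5% and 67.5% against 0%, 21.9%, 62.8%, 3.3% and 25.2%, and B3 lay within the range of set A.

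Genes with a role in the germ line were examined by list. Imprinted genes carry marks that differ between oocyte and sperm and are set anew in every male germ line. Among maternally methylated imprinted genes, 2 of 789 CpG positions were DMCs (0.253%, against 0.458% of all positions) and 0 of 140 windows were DMRs (against 0.406% of all windows). Among paternally methylated imprinted loci 0 of 288 positions and 0 of 49 windows were called, against the same shares. The DMCs were at Zrsr1, a splicing factor gene, with 0%, 26.1%, 0%, 0% and 0% against 31.1%, 40.6%, 0%, 62.9% and 6.0%, and at H13, a peptidase gene that hosts an imprinted copy, with 36.2%, 60.9%, 57.6%, 57.7% and 73.3% against 0%, 27.3%, 40%, 51.5% and 18%. Around H19, an imprinted RNA whose control region is methylated in sperm, 7 positions averaged 54.5%, 50.8%, 54.1%, 54.7% and 57.1% in set A and 60.2%, 58.6%, 57.8%, 57.1% and 57.9% in set B (54.2% ± 2.28 and 58.3% ± 1.19, exact permutation test, two-sided, n = 5 and 5, p = 0.0159, Benjamini-Hochberg adjusted p = 0.238 over 15 imprinted regions). Around Meg3, the other locus methylated in sperm, 34 positions averaged 73.2% ± 0.416 and 72.9% ± 1.98.

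The enzymes and readers of DNA methylation had 2 DMCs among 618 positions (0.324%, against 0.458% of all positions) and 0 DMRs among 99 windows (against 0.406% of all windows). At Mbd3, a subunit of a chromatin remodelling complex, chr10:80395092 had 73.7%, 73.9%, 81.8%, 71.4% and 89.1% in set A and 42.9%, 25%, 56%, 68.8% and 21.4% in set B, without overlap, and at Dnmt3a, a de novo methyltransferase, chr12:3849447 had 100%, 88.1%, 0%, 64.3% and 100% against 37.9%, 23.7%, 67.8%, 94.7% and 50%. Spermatogonial stem cell genes had 1 DMC among 907 positions (0.110%, against the same 0.458%) and 1 DMR among 139 windows (0.719%, against 0.406% of all windows). Both were the same position, chr9:48675692 in Zbtb16, the transcription factor PLZF that marks these stem cells: set B was at 100% in each mouse and set A at 0%, 75.9%, 20%, 92.9% and 100%, so that A1 and A3 set the difference of -36.4 points (exact permutation p = 0.0476, n = 5 and 5, F test q = 0.542).

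Pluripotency genes (436 positions in 80 windows), meiosis and piRNA genes (259 in 57) and oocyte and maternal effect genes (103 in 24) had 0 DMCs and 0 DMRs. Over all features 0.458% of positions and 0.406% of windows were called, and in lists of this size 0 calls cannot be told from those shares. Spermiogenesis genes had 2 DMCs among 281 positions (0.712%, against 0.458% of all positions) and 0 DMRs among 56 windows, both in Ldhc, the lactate dehydrogenase of germ cells, at chr7:46869671 and chr7:46869689. The first had 59.3%, 100%, 100%, 75% and 100% against 19%, 0%, 55%, 89.5% and 63.2%. Hox genes, the clustered regulators of the body axis, had 5 DMCs among 1730 positions (0.289%, against the same 0.458%) and 0 DMRs among 176 windows, at a mean window level of 11.7%. At chr6:52190592, in the spans of Hoxa3 and Hoxa4, set A had 0%, 0%, 8.5%, 0% and 0% and set B 30%, 52.9%, 11.5%, 27.8% and 69.2%, without overlap. Hoxc4 and Hoxc13 had 1 DMC each and Hoxd3 had 2, all with overlap of the sets.

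Receptors for glutamate and GABA, the main excitatory and inhibitory transmitters of the brain, had 12 DMCs among 1700 positions (0.706%, against 0.458% of all positions), 5 higher and 7 lower in set A, and 4 DMRs among 404 windows (0.990%, against 0.406% of all windows), 2 in each direction. In Grik2, a kainate receptor subunit, the window chr10:49249001-49250000 had 68.4%, 44.1%, 59.6%, 51.1% and 57.5% against 20%, 13.2%, 60.3%, 29.2% and 12.5%, with B3 in the range of set A. In Grm3, a metabotropic receptor, chr5:9688823 had 85.7%, 100%, 100%, 83.3% and 100% against 100%, 0%, 78.6%, 42.9% and 43.5%. Near and in Grm8, another of that class, 2 windows were lower in set A by 25.2 and 26.8 points with wide overlap (exact permutation p = 0.294 and 0.206, n = 5 and 5). Near Grin3b, an NMDA receptor subunit, 3 positions 450, 564 and 605 bp outside the span were lower in set A, and at the last, chr10:79977795, the sets were separated, with 38.3%, 27.8%, 21.2%, 35.7% and 0% against 87.5%, 60.5%, 78.1%, 76.1% and 53.3%. Near Gabrg3, a GABA receptor subunit, chr7:56716007, 456 bp outside the span, was also separated, with 12.3%, 8.0%, 0%, 0% and 12.1% against 21.1%, 63.8%, 26.3%, 37% and 51.6%. Other DMCs inside Gabrg3 (chr7:57310712, 27.6 points) and Grik2 (chr10:49512240, -26.0 points) went against the direction shown for these genes, with overlap of the sets.

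Genes that the study itself singled out for the F2 lines were chosen on comparisons with control F1 in these mice, so their calls here are not independent evidence. Of 12 genes named for SSCT F2/M, 6 carried 11 DMCs among 387 positions (2.84%, against 0.458% of all positions), 4 higher and 7 lower in set A. Among their windows, 0 of 81 were DMRs (against 0.406% of all windows). Agxt, a peroxisomal enzyme of glyoxylate metabolism, had 3 DMCs that did not share a direction. Of these, chr1:93135388 differed by -28.7 points with overlap (exact permutation p = 0.317, n = 5 and 5), chr1:93135341 had 100%, 78.9%, 92.3%, 100% and 100% against 32.1%, 70.8%, 73.1%, 52.6% and 82.8%, and chr1:93135443 had 42.3%, 36.8%, 42.4%, 38.8% and 24.4% against 63.2%, 76.7%, 61.5%, 46.2% and 50%, without overlap in the lower direction. In Mapt, which encodes the microtubule protein tau, chr11:104298501 had 0%, 34.8%, 4.5%, 28.6% and 0% against 53.8%, 30.8%, 52%, 34.5% and 48.8%, and chr11:104298548 had 0% in all of set A (135 reads, up to 2.22%) against 48%, 0%, 51%, 0% and 37.5%. The remaining DMCs were in Rin1, a Ras effector (-25.6 and 25.03 points at chr19:5053056 and chr19:5053092), Sema4f, a semaphorin (-27.7 points), Ccl3, a chemokine (31.1 points), and App, the amyloid precursor (30.8 and -27.9 points), with exact permutation p between 0.0159 and 0.127 at n = 5 and 5.

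Of 8 genes named for SSCT F2/P, 4 carried 5 DMCs among 562 positions (0.890%, against 0.458% of all positions), and 1 of 77 windows was a DMR (1.30%, against 0.406% of all windows). That window was in Etv4, an ETS transcription factor, at chr11:101774001-101775000, with 83.3%, 100%, 100%, 100% and 87.7% in set A and 76.5%, 45%, 55.4%, 86.4% and 54.1% in set B over 2 positions (31.1 points, exact permutation p = 0.0159, n = 5 and 5), and B4 lay inside the range of set A. In Lypd1, a modulator of nicotinic receptors, chr1:125872567 had 50%, 38.5%, 56%, 60.5% and 55.6% against 73.7%, 100%, 86.4%, 72.7% and 70.4%, without overlap. Gata3, a regulator of T cells, was higher at 1 position (33.0 points) and Mypn, a muscle sarcomere protein, lower at 1 (-29.4 points). The last list held 7 genes: Gpx8, Tal2, Zfp229, F930017D23Rik, Nudt1, Lefty2 and Gm6590. All but Gm6590 were among those that the study followed by bisulfite Sanger sequencing. All but Lefty2 were among those that it marked as shared between generations, and C130012C08Rik, also marked so, was not in the list. The 7 genes had 0 DMCs among 105 positions and 0 DMRs among 19 windows, against 0.458% of all positions and 0.406% of all windows. With so few positions, 0 calls cannot be told from those shares. Their median absolute window difference was 2.18 points, against 1.67 points over all windows.

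The X chromosome, which a male receives from the mother, was tested apart. Of 1152 X windows, 14 were DMRs (1.22%, against 0.406% of the autosomal windows), 5 higher and 9 lower in set A. The part of depth and of covered positions per window in this share was not tested. The sets were separated at 1 of the 14 and at 4 of all X windows (0.347%, against 0.434% of the autosomal windows). The F test called 0 X windows, and 4 that differed by more than 25 points had F test p under 0.05 before adjustment. Mean X methylation was 53.3% ± 0.639 and 53.4% ± 0.294 (exact permutation test, two-sided, n = 5 and 5, p = 0.873).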

How the data were processed

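RRBS libraries of cauda epididymal sperm from 10 mice, 5 per set, were analysed, 1 library per mouse. The authors deposited for each library, by CpG position and strand, a read count (coverage) and a methylated fraction. Per the submitters' processing notes, FastQC, Trim Galore 0.4.1, Bismark 0.20.0 and methylKit 1.7.0 were used, on mm10. All 80273 kept positions inside RefSeq promoters lay on a CpG of GRCm38.p6. Fraction times coverage gave whole methylated reads (tolerance 0.05) at all but 0 to 2 positions per library.

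Positions needed 10 reads in each library and coverage up to the 99.9th percentile of it. Reads were summed over windows of 1000 bp. Sets were compared per CpG and window by a logistic likelihood-ratio test without overdispersion, with Benjamini-Hochberg q below 0.01 and a read-weighted difference above 25 points, following the study's methylKit settings; its method for q is not given in the sources used here. The F test divides by the Pearson chi-square per degree of freedom. limma 3.58.1 used log2 ratios of methylated to unmethylated reads plus 1. Single values per mouse were compared by exact permutation over all splits into 5 and 5, and 95% intervals were found by inverting that test. Counting intervals and floors (3 reads) cover counting error only, since reads without molecular identifiers are not independent molecules. Libraries were sequenced in pools, but which mice shared a pool is not given in the sources used here, so no within-pool value could be computed. No library was a duplicate: the smallest mean chi-square between windows of 2 mice was 5.16.

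Named windows were, per direction, up to 8 separated DMRs with at least 3 positions and the 3 with the largest difference, then genes of the study and list genes with calls. Genes span RefSeq coordinates, with 2000 bp either side for lists, and 251 of 251 list genes matched, 230 with a tested position. The set members, the 13 gene lists and the tests were chosen with earlier results of these data known. Alternatives were other coverage minimums, tests, thresholds, windows, merged strands, the replicate number as a block and leaving out each library. The libraries titled SSCT F2/M and SSCT F2/P, which are other mice, were compared by the same rule. Scripts used Python 3.11.15, scipy 1.17.1 and R 4.3.3 and were tested on simulated data. Chromosome Y, mitochondrial DNA and the F0 libraries were not used here.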

Additional observations from a re-analysis of the deposited data

Results flagged for a closer look

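Single mice far from the other 4 of their set, by the gap between the outermost value and its neighbour as a share of the range, were found in 9 of 120 groups of 5 values examined. The rule's rate of about 1 in 20 by chance does not apply here, since levels are bounded and several groups came from sites chosen for their values. At Aard and at both Etv4 positions, the other 4 mice of the set were all at 100%. In set A, A1 had the lowest mean level of windows below 20% methylation (3.98%) and the highest level at the Wnt2b promoter (1.37%), and A5 the highest level at chr1:48100925 (81.7%). At Etv4, A1 was lowest at chr11:101774056 (66.7%) and A5 at chr11:101774100 (75.9%). In set B, B3 was lowest at Aard (85.7%) and highest at the Gata3 position chr2:9868845 (61.9%), B5 was lowest at the Agxt position chr1:93135388 (10.0%), and B2 was lowest at the Cubn promoter (5.00%).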

How the results depend on the processing

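The DMC count of 2718 was 6247 with at least 5 reads, 485 with at least 20 reads, 30907 with a threshold of 10 points, and 0 with the F test and with limma. The DMR count of 513 was 926, 148, 6486, 0 and 0 under these settings, and 52 in windows with at least 3 positions. Without 1 library, DMCs numbered 3615 to 4025 and DMRs 669 to 748, where more positions were tested and means rested on fewer mice. With the replicate block they were 2690 and 508. Numbers of sets A and B do not pair mice (correlations of deviations of same-numbered mice -0.0035 to 0.0066, 1 of 5 mice closest to its own number). With no upper limit of coverage, Storey q-values, merged strands and, for windows, a shift by 500 bp, counts stayed within 1.5 times. The libraries titled SSCT F2/M and SSCT F2/P are other mice, so their 2813 DMCs and 485 DMRs do not show how the counts depend on the processing. The difference in mean methylation (0.010 points) was -0.0052 with pooled reads and -0.014 to 0.0451 without 1 library, and the pairing of numbers gave p = 0.875 (exact sign permutation over 5 pairs). The distance between sets minus that within sets (0.0085 points) was -0.0069 with 20 reads and -0.0978 to 0.108 without 1 library, with exact permutation p of at least 0.0556. The larger spread of set A (0.232 points) was 0.204 with 20 reads, and -0.0164 to 0.467 without 1 library. It was no longer past the threshold whichever mouse of set B was left out (-0.0164 to 0.0733 points, the lowest without B5). It stayed past the threshold whichever mouse of set A was left out (0.370 to 0.467 points). That measure compares a mouse with the median of the others of its set, so a set of 4 mice is compared with 3 and the others with 4. Leaving out a mouse therefore cannot decide whether the larger spread holds. The named window at Aard (-52.4 points) was -57.7 to 0.270 points without 1 library, the latter without A2, when further positions of the window had enough reads. All 12 named windows lost the call under the F test. With 20 reads, 2 of the 12 could still be tested. Reads per position, from 10 upwards, and 5 mice per set limit what could be detected.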
